A study of Saccharomyces cerevisiae with 54 samples.

Results

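YJM308 is a clinical isolate of the budding yeast Saccharomyces cerevisiae. The 3 arrays whose titles name it against DBY8268 are described here, out of 54 arrays in the series. Each was a 2-colour oligonucleotide array on which RNA of 1 strain competed with RNA of DBY8268, a diploid derivative of the laboratory strain S288C whose URA3 copies are disabled (ura3-52/ura3Δ) and which is ho/ho and GAL2/GAL2. The other 51 arrays held 16 strains treated the same way, 14 of the 17 strains having 3 arrays and 3 strains having 4. The 16 other strains were B1, I14, K1, K9, M22, M8, PR, RM11a, SB, Y1, Y10, Y12, YJM269, YJM789, YPS1009 and YPS163, of which RM11a and YJM789 are haploid. The ploidy of YJM308 is not given in the sources used here. All strains grew without treatment for 3 doublings in rich glucose medium (YPD) at 30 °C to an optical density near 0.5. YJM308, like every strain, was sampled as separate cultures, and each result therefore rests on 1 isolate and 3 cultures.

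Every value below is a log2 ratio of strain over DBY8268, so that 1 stands for a doubling. For each gene the YJM308 mean was set against the unweighted mean of the 16 other strains' means, and that subtraction is called the difference. DBY8268 is on every array and cancels out of the difference. A gene was called where its adjusted p in limma was under 0.01. That p weighs the difference against the spread of replicate arrays within strains. It leaves out the spread among the 16 other strains, as do the chromosome and block tests. A called gene can therefore lie within the range of the other strains. Of 6264 genes on the arrays, 5501 had enough values to be tested, and 307 of these lay on chromosome XI, out of 337. Chromosome XI was treated apart from the rest because its genes stood high as a body in YJM308. Its tests below use the same arrays and are not independent of that choice.

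Budding yeast carries its nuclear genes on 16 chromosomes, and genes of unrelated function are neighbours. Regulators usually act on genes scattered over many chromosomes, so a shift shared by neighbours is a different kind of pattern from a shift shared by a pathway. An RNA ratio does not separate the number of copies of a gene from the RNA made per copy. DNA of YJM308 was not analysed here, and for every chromosome-scale value of YJM308 below those possibilities cannot be told apart.

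The 3 YJM308 arrays were not equally alike. Replicates 1 and 3 correlated at r = 0.814 over genes, whereas replicate 2 correlated at 0.325 with replicate 1 and at 0.504 with replicate 3. Pairs of arrays of the other strains ran from 0.296 to 0.884. Replicates 2 and 3 shared a slide with an array of K9 or YJM269. Replicates 1 and 2 were hybridised in the G5 slide series with the same dye orientation and replicate 3 in the G6 series with the dyes exchanged, so slide series and dye cannot be told apart within YJM308. On replicate 2 the log2 ratio also ran with chromosome number (r = 0.209 over genes, against -0.143 to 0.112 on the 51 other arrays), which is a description only. Calls of named genes that were lost with 1 YJM308 array left out are given with the value without it. Genes with values on 2 arrays could not be tested that way. The arrays held 5438 to 5591 genes with a value, and no counts or intensities were used, so the number of arrays limits the precision (the median standard error of a difference was 0.25).

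The first comparison asked which chromosomes stood apart in YJM308. Chromosome XI stood further above the rest of the genome on each YJM308 array than on any array of another strain. On each array the median log2 ratio was taken over the genes of a chromosome and over all remaining nuclear genes, and the former less the latter is called the offset. For chromosome XI it was 0.58, 0.62 and 0.64 on the YJM308 arrays. On the 51 other arrays it lay between -0.08 and 0.13, so the groups did not overlap. The difference was 0.58 ± 0.03 (SE, n = 3 against 51 arrays of 16 strains, adjusted p = 7.3e-22 over 16 chromosomes). Chromosome XI was set apart because of these same values, so this p-value and the lack of overlap are not independent support. It was 0.58 within the G5 slides and 0.58 within the G6 slides. Chromosome III was the other chromosome called, and 2 of 16 called is 12.5% of the chromosomes. Its offsets were -0.02, -0.66 and -0.31, with a difference of -0.35 ± 0.06 (adjusted p = 1.1e-05). The replicate 1 value lay among those of the other arrays (-0.15 to 0.55), and without replicate 2 the difference was -0.19 (adjusted p = 0.0198) and no longer passed. Chromosome XV as a whole was not called (difference 0.11, adjusted p = 0.145), although its left arm stood apart, as described further on.

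**Figure D1:**
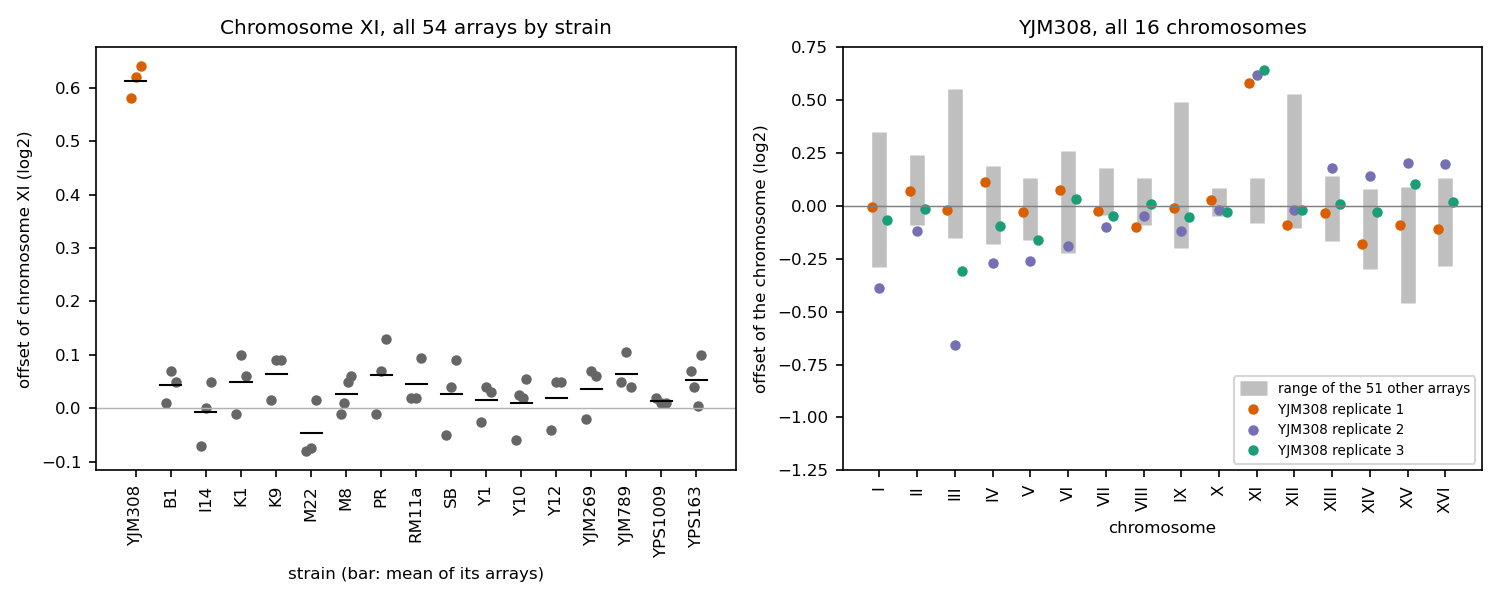
Offset of chromosome XI on each of the 54 arrays by strain, with the mean of each strain as a bar (left), and the offsets of all 16 chromosomes on the 3 YJM308 arrays beside the range of the 51 other arrays in grey (right), all in log2 units. The 3 YJM308 values for chromosome XI sit between 0.58 and 0.64, all above the other arrays, while replicate 2 is low on chromosome III at -0.66.

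The rise on chromosome XI was spread along the chromosome. The median difference of its 307 tested genes was 0.55, and 0.55, 0.57 and 0.59 on the 3 arrays taken one at a time. Over the 5194 tested genes elsewhere the median was -0.02. On chromosome XI 270 of 307 genes (87.9%) were above 0, against 2484 of 5194 (47.8%) elsewhere. YJM308 was the highest of all strains for 140 of the 307 genes (45.6%), and for 6.33% of the other genes. Of the 289 genes with 3 values, 189 lay above the other strains' mean on all 3 arrays and 5 lay below it on all 3. In blocks of 20 neighbouring genes, all 15 blocks of the chromosome were called higher, with differences from 0.33 ± 0.08 to 0.71 ± 0.08. Without replicate 1, 2 or 3 the number called was 13, 14 and 13. The block from KTI12 to YKL091C lost its call each time (differences 0.37, 0.40 and 0.33, adjusted p = 0.0554, 0.0217 and 0.0994), and that from SPO14 to DYN1 without replicate 1 (0.32, adjusted p = 0.0342) or 3 (0.27, adjusted p = 0.0883). The lowest, from SPO14 to DYN1 on the right arm, stood at 0.23, 0.06 and 0.31 on the 3 arrays, and the highest spanned the centromere, from PRP40 to FOX2. Over the genome 27 of 273 blocks were called (9.89%), so the chromosome XI blocks made up 15 of these 27.

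**Figure D2:**
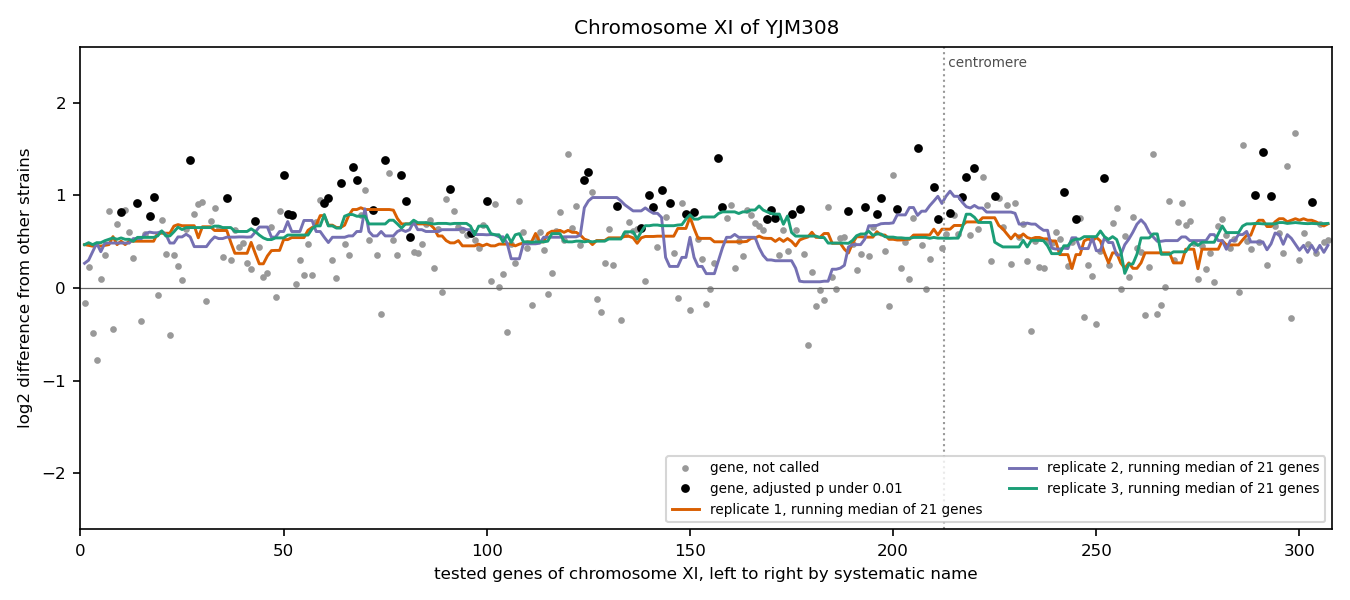
Difference between YJM308 and the other strains (log2) for the 307 tested genes of chromosome XI in name order from left to right, with called genes in black and the running median of 21 genes for each YJM308 array as a line. All 3 lines stay above 0 along the chromosome, and 60 genes are called, all higher.

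Single genes followed the chromosome to different degrees. Of the 5501 genes tested, 220 were called (4.00%), 177 of them higher (3.22%) and 43 lower (0.782%). Chromosome XI held 60 of the higher calls and none of the lower ones, which is 19.5% of its tested genes, while 2.25% of the genes elsewhere were called higher and 0.828% lower. The differences of the 60 called genes ran from 0.55 to 1.51 with a median of 0.93, and YJM308 was the highest strain for 56 of them. The 247 genes of the chromosome that were not called had a median of 0.47, and 210 of them were above 0. Their median standard error was 0.26, against 0.19 for the called genes. The number of calls depended on having all 3 arrays: it was 22 without replicate 3, 26 without replicate 1 and 41 without replicate 2, of which 31 were among the 60. Within 0.3 of the offset lay 168 of the 307 genes.

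Genes that sat on the offset included LHS1, a chaperone of the endoplasmic reticulum, SBA1, a co-chaperone of Hsp90, and APL2, a subunit of the AP-1 clathrin adaptor. APL2 read 0.74, 0.57 and 0.87 in YJM308 against a mean of 0.18 in the other strains, a difference of 0.55 ± 0.13 (adjusted p = 0.0045). SBA1 read 0.50, 0.46 and 0.26 against -0.19, a difference of 0.59 ± 0.15 (adjusted p = 0.0064). LHS1 read 0.47, 0.88 and 0.72 against 0.05, a difference of 0.64 ± 0.16 (adjusted p = 0.0077). All 3 genes were higher in YJM308 than in any other strain, but the calls rested on all 3 arrays. LHS1 was not called with any 1 of them left out (differences 0.75, 0.55 and 0.63, adjusted p = 0.0145, 0.0667 and 0.0631). SBA1 was not either (0.55, 0.57 and 0.67, adjusted p = 0.0732, 0.0342 and 0.0189). APL2 lost its call without replicate 1 (0.54, adjusted p = 0.0400) or 3 (0.48, adjusted p = 0.0811).

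Few chromosome XI genes could be called apart from the offset at this precision. At or below 0 lay 37 of the 307 genes (12.1%), against 52.2% of the genes elsewhere. After the offset was removed from the chromosome XI genes of the YJM308 arrays, 149 genes were called over the genome (2.71%), of which 3 were on chromosome XI, all below the offset. TTI1, a partner of Tel2 in the assembly of kinases of the TOR family, read 0.00, -1.21 and -0.59 against 0.02 in the other strains. Its distance from the offset was -1.20 ± 0.24 (adjusted p = 0.0010). AAT1, the mitochondrial aspartate aminotransferase, read -0.54, -0.40 and -0.17 against 0.10, which was -1.06 from the offset (adjusted p = 0.00037). UIP5 read -1.41, -0.17 and -0.92 against -0.45, which was -0.97 from the offset (adjusted p = 0.0026). None of these genes was itself called against the other strains (differences -0.62, -0.47 and -0.38), and their values lay on or under the mean of the other strains on all but 1 of the 9 measurements. YKL063C and SRP40, a nucleolar protein, came next below the offset by moderated t and missed the threshold (adjusted p = 0.015 and 0.021). The count below the offset was 8 without replicate 2, and 1 without replicate 1 or without replicate 3.

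No chromosome XI gene was called above the offset. SFT1 had the largest moderated t (0.94 above the offset, adjusted p = 0.034) but a value on 2 YJM308 arrays. Among genes with values on all 3, the 5 farthest above it by moderated t were MRPL20 and RSM22, named for the mitochondrial ribosome, MRP8, MDM35, a protein of the mitochondrial intermembrane space, and MEH1, a subunit of the vacuolar EGO complex. MRPL20 read 1.70, 1.92 and 2.13 against 0.45, a difference of 1.47 ± 0.27 (adjusted p = 0.0003), and stood 0.89 above the offset (adjusted p = 0.050). RSM22 read 1.07, 1.46 and 1.30 against 0.14, a difference of 1.13 ± 0.17 (adjusted p = 1.5e-05). MEH1 read 0.86, 1.24 and 0.96 against -0.17, a difference of 1.19 ± 0.20 (adjusted p = 5.0e-05). For all 3 of these genes every YJM308 array lay above the mean of every other strain. Against the other strains, MRPL20 and MRP8 lost their calls without replicate 3 (differences 1.36 and 1.28, adjusted p = 0.0102 and 0.0115), and MDM35 without replicate 1 (1.28, adjusted p = 0.0229) or 3 (adjusted p = 0.0154).

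Genes named MRP, MRPL, MRPS or RSM, most of which encode proteins of the mitochondrial ribosome, were described as a group. This list was drawn up after values had been seen. Of its 65 tested members 8 lay on chromosome XI, and all 8 were called higher, with a median difference of 1.18, where 19.5% of all tested genes of the chromosome were called higher with a median of 0.55. None of the 8 was called above the offset (adjusted p from 0.050 to 0.61). Without replicate 1, 2 or 3, the number called against the other strains was 5, 6 and 3. MRPL38 read 1.97, 1.95 and 1.89 against 0.72, and MRP49, the lowest of the 8, read 1.41, 1.25 and 1.16 against 0.49. MRP49 lost its call with any 1 of the arrays left out (0.72, 0.80 and 0.84, adjusted p = 0.0505, 0.0143 and 0.0159). The 57 members on other chromosomes had a median of 0.47, and none was called. Over all genes the median was 0.00. MRP8, which is on the list by its name, is not sure to be such a protein.

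Other lists were split by chromosome in the same way. Of the nuclear respiratory chain list, 3 of 42 tested members lay on chromosome XI and had a median of 1.05, against 0.28 for the 38 members outside chromosome XI and the stretches of III and XV described below. ATP7, a subunit of ATP synthase, read 1.35, 1.42 and 1.79 against 0.55 and was called (difference 0.97, adjusted p = 0.0069), though not with any 1 of the arrays left out (1.06, 1.02 and 0.84, adjusted p = 0.0262, 0.0200 and 0.106). SDH3 read 1.5, 0.65 and 1.82 against 0.09 (difference 1.24, adjusted p = 0.011, and 1.57 with adjusted p = 0.0054 without replicate 2), and SDH1 read 2.87, 0.41 and 3.03 against 1.05 (difference 1.05, adjusted p = 0.26). Both encode subunits of succinate dehydrogenase, and both were lowest on replicate 2. The 3 ribosome biogenesis genes of chromosome XI stood at a median of 0.10 where those elsewhere stood at -0.55. No member of that list was called, and its median changed sign between the YJM308 arrays, as given further on.

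Regulators encoded on chromosome XI were measured too. HAP4, the activating subunit of the Hap complex that drives respiratory genes, read 1.71, 0.66 and 2.67 against 0.77 in the other strains, a difference of 0.91 ± 0.29 (adjusted p = 0.050). All but replicate 2 lay above every other strain. IXR1, an HMG-domain protein, had a difference of 0.17 ± 0.20, and ASH1, a repressor of HO, one of 0.30 ± 0.22. BAS1, an activator of purine and histidine genes, read 0.93 and -0.03 on 2 arrays, a difference of 0.38 ± 0.42. None of these was called. ABF1 and DAL80 had a value on 1 YJM308 array each and were not tested.

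Chromosome-wide rises were also present in 3 other strains of the series, on other chromosomes. With the same contrast the offset was 0.51 for chromosome XII of YPS1009, 0.50 for chromosome IX of K9 and 0.50 for chromosome III of K1. The share of genes above 0 was 83.5%, 83.2% and 89.4% there, beside 87.9% for chromosome XI of YJM308. The share called higher was 5.70%, 12.0% and 6.82%, beside 19.5%. The spread of the gene differences (median absolute deviation) was 0.41 on chromosome XI of YJM308, 0.31 on XII of YPS1009, 0.42 on IX of K9 and 0.33 on III of K1. On the other chromosomes of the same strains it was 0.37, 0.34, 0.38 and 0.32. The differences among these 4 chromosomes were not tested. The paper also hybridised DNA of some strains. It reports chromosome XII of YPS1009 as duplicated as a whole, and IX of K9 as apparently amplified. YJM308 and K1 were not among those strains. The paper adds that most genes of XII in YPS1009 and IX in K9 did not have raised RNA. It judged raised expression of amplified genes by thresholds against S288c, a measure unlike the share above 0 given here.

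The second pattern was a stretch of chromosome III that was lower in YJM308. The stretch was chosen after its values were seen, so it is described by counts and medians, and the blocks and single genes carry the tests. From TAF2 (YCR042C) to OCA4 (YCR095C), on the right arm between the mating-type locus MAT and the silent cassette HMR, 34 of 35 tested genes were below 0 and 19 were called lower. Their median difference was -1.11, and -0.81, -1.46 and -1.09 on the 3 arrays. YJM308 was the lowest of all strains for 25 of the 35. Relative to the rest of the genome the stretch stood at -0.88, -1.49 and -1.26 on the YJM308 arrays, and between -0.27 and 0.54 on the 51 other arrays. Of the 43 genes called lower over the whole genome, 19 lay there. Without replicate 2 the median was -0.91, and 10 of 30 genes were called. Of the 7 blocks of chromosome III, 3 were called, all lower. The rightmost, from CSM1 to AAD3, lost its call without replicate 2 (-0.32, adjusted p = 0.0542) or 3 (-0.27, adjusted p = 0.144). The block from PWP2 to TUP1, which lies inside the stretch, stood at -0.88, -1.49 and -1.01 (difference -1.19 ± 0.10, adjusted p = 5.0e-14), and it was called with any 1 of the replicates left out.

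The genes of this stretch were of mixed function. CDC39, the scaffold of the Ccr4-Not complex, read -1.49 and -1.26 on the 2 arrays with a value, against -0.01 (difference -1.36 ± 0.17, adjusted p = 1.4e-07). THR4, threonine synthase, read -1.48, -2.28 and -1.77 against -0.31 (difference -1.54 ± 0.20, adjusted p = 7.7e-07). RAD18, a ubiquitin ligase of postreplication repair, read -1.05, -1.99 and -1.02 against 0.11 (difference -1.47 ± 0.22, adjusted p = 1.7e-05). Each was below the mean of every other strain on all arrays that measured it. TUP1, the general corepressor, read -0.90, -1.24 and -0.78 against 0.29 (difference -1.26 ± 0.20, adjusted p = 3.0e-05). CDC50, a subunit of a phospholipid flippase, read -0.97, -1.56 and -1.31 against 0.10 (difference -1.38 ± 0.24). SED4 and AHC2 stood at -1.09 ± 0.15 and -1.06 ± 0.17. Larger falls were measured for YCR043C (-1.78, -2.83 and -1.51 against -0.16) and for PWP2, a component of the small-subunit processome (-3.18, -1.84 and -1.78 against 0.25). TVS1 (YCR061W) was the exception, at 0.70, -0.40 and -0.01 against 0.02.

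Genes on either side of the stretch stood nearer to the other strains. On its left, MATALPHA1 had a difference of -0.42 ± 0.22 and MATALPHA2 one of 0.09 ± 0.27, and the 90 tested genes from the left end to MAT had a median of -0.19. Their medians on the 3 arrays were 0.07, -0.54 and -0.14, so replicate 2 was the lowest there too. On the right, HMRA2 read -0.44, 0.04 and 0.09 against -0.06 and HMRA1 read 0.09, 0.16 and 0.01 against 0.05. The MAT and HM cassettes hold related sequences, so their values may be shared between copies. Beyond HMR, EMA35 (YCR100C) was higher, at 2.37, 2.25 and 1.80 against 0.04 (difference 2.10 ± 0.34, adjusted p = 0.00022). GIT1, a permease for glycerophosphodiesters, read 2.24, 1.33 and 3.14 against 0.30 (difference 1.94, adjusted p = 0.065).

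The third pattern was a raised left arm of chromosome XV, higher towards its end, divided into an outer and an inner stretch after its values were seen. From the left end to NDJ1 (YOL104C), 46 of 51 tested genes were above 0 and 19 were called higher. Their median difference was 0.97, and 0.82, 1.05 and 0.93 on the 3 arrays. From ITR2 (YOL103W) to HTZ1 (YOL012C), 74 of 82 tested genes were above 0 and 10 were called higher, with a median of 0.48, and 0.26, 0.62 and 0.52 on the arrays. From PLB3 (YOL011W) through the centromere to the right end, 160 of 367 genes were above 0 and the median was -0.05. Relative to the rest of the genome the outer stretch stood at 0.79, 0.97 and 0.81 in YJM308 and at -0.51 to 0.24 on the other arrays. The inner stretch stood at 0.34, 0.63 and 0.47, against -0.43 to 0.09. Neither overlapped with any other array, but both stretches were chosen on these same values, so the lack of overlap is not independent support. YJM308 was the highest strain for 33 of the 51 outer genes and for 34 of the 82 inner ones. Without replicate 2 the medians were 1.04 and 0.38. Of the 25 blocks of the chromosome, the 7 leftmost were called higher, with differences from 0.34 ± 0.08 to 1.02 ± 0.15. Without replicate 2 that number was 5, and without replicate 3 it was 6. The block from HMI1 to YOL075C lost its call both times (0.25, adjusted p = 0.0991, and 0.34, adjusted p = 0.0194), and that from MDM38 to CSI2 without replicate 2 (0.21, adjusted p = 0.135). Another 2 on the right arm, between YOR304C-A and YOR345C, were called lower (-0.31 ± 0.09 and -0.48 ± 0.12). Neither of them was called without replicate 1, and only 1 without replicate 3. Other arrays reached as low as -0.72 in both. No block of the 13 remaining chromosomes was called with all arrays, and without replicate 2 there were 3 such blocks, on chromosomes VIII and XII.

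Between the outer and the inner stretch lie YOL103W-A and YOL103W-B, reading frames of a Ty retrotransposon. YOL103W-A read -1.52, -1.5 and -0.89 against -5.10 in the other strains (difference 3.8 ± 0.38, adjusted p = 7.6e-09). Other Ty copies share its sequence, so this value cannot be placed at this locus alone.

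The outer genes were again of mixed function. DCP1, a subunit of the mRNA decapping enzyme, read 1.19, 1.51 and 1.46 against -0.19 (difference 1.58 ± 0.14, adjusted p = 1.2e-09). CDC33, the cap-binding initiation factor eIF4E, read 0.87, 1.66 and 1.27 against 0.00 (difference 1.26 ± 0.19, adjusted p = 1.5e-05). GRE2, a methylglyoxal reductase, read 1.39, 1.62 and 1.71 against -0.68 (difference 2.26 ± 0.34, adjusted p = 1.5e-05). In all 3 genes every YJM308 value lay above every other strain. PSF3 of the GINS replication complex, RIB4 of riboflavin synthesis, VPS68, HRT1 of the SCF ubiquitin ligases and SKM1, a kinase of the PAK family, were called as well, with differences from 1.07 for HRT1 to 2.08 for SKM1. RPL25, a ribosomal protein gene of the same stretch, read 1.54, 1.27 and 0.68 against 0.06 (difference 1.10 ± 0.26, adjusted p = 0.0042), and lost its call without replicate 1 (0.91, adjusted p = 0.0979) or 2 (1.05, adjusted p = 0.0275). In the inner stretch COQ3, a methyltransferase of ubiquinone synthesis, had a difference of 1.15 ± 0.21 (adjusted p = 0.00025) and DSC2, of a Golgi ubiquitin ligase, one of 1.04 ± 0.23. The histone variant gene HTZ1 at its end had one of 0.18 ± 0.19, and PLB3 next to it one of -0.15 ± 0.28. DSC2 lost its call without replicate 1 (1.03, adjusted p = 0.0206) or 3 (0.97, adjusted p = 0.0328), and RIB4 stood at the threshold without replicate 2 (1.13, adjusted p = 0.01).

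**Figure D3:**
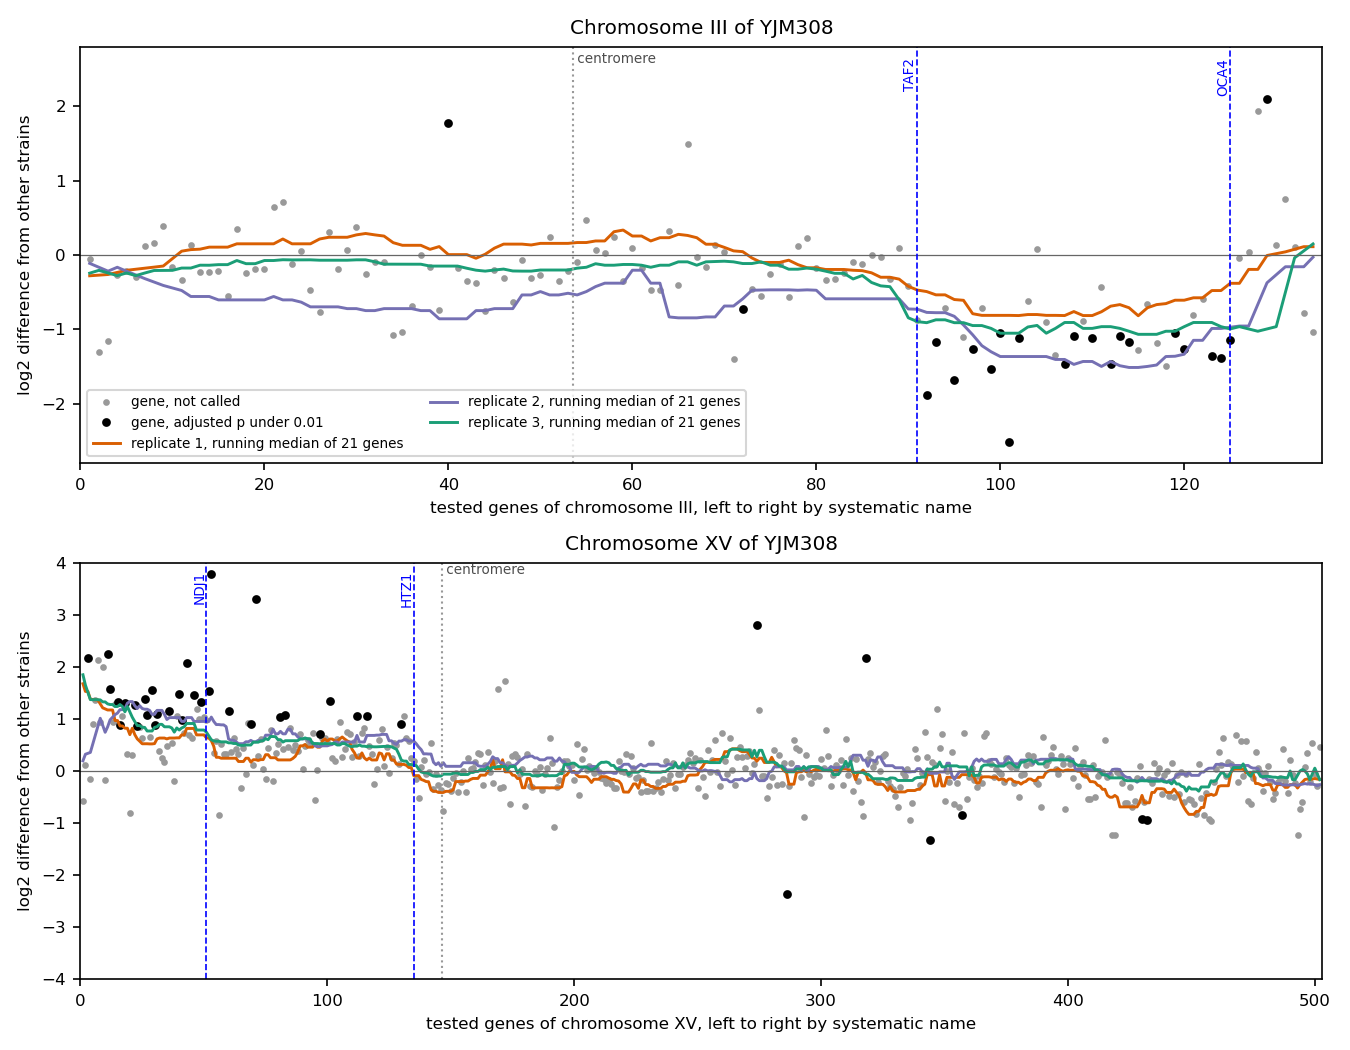
Difference between YJM308 and the other strains (log2) for the tested genes of chromosomes III (top) and XV (bottom) in name order, with called genes in black, the running median of 21 genes for each YJM308 array as lines, and dashed lines at the ends of the stretches, which were chosen after the values were seen. Between TAF2 and OCA4 all 3 lines lie below 0 (medians -0.81, -1.46 and -1.09), with replicate 2 low on the rest of III as well. On XV the medians are 0.97 left of NDJ1, 0.48 from ITR2 to HTZ1 and -0.05 to the right of it.

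A further comparison asked which genes elsewhere set YJM308 apart. Of the 160 genes called outside chromosome XI, 19 were in the chromosome III stretch, 29 in the chromosome XV stretches and 66 on a list of Ty reading frames, which left 22 higher and 24 lower. The largest differences were those of ASP3, for which every strain read below DBY8268 and YJM308 was the least far below. ASP3 encodes the cell wall asparaginase, present in DBY8268 as neighbouring near-identical copies whose signals cannot be separated. ASP3-2 read -2.39, -2.32 and -2.19 in YJM308 and -8.33 to -6.33 in the other strains (difference 4.88 ± 0.36, adjusted p = 3.5e-07). ASP3-3 and ASP3-4 differed by 4.74 and 4.79, and both were called. ASP3-1 read -2.45, -2.20 and -2.18 but had too few other strains with a value to be tested. ASP1, the cytosolic enzyme, did not follow them (difference -0.32 ± 0.19).

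Ty elements are retrotransposons whose copy number and position differ between strains. The list of 87 reading frames came from annotations of genes called in this same study, so its count is not independent. Of 86 tested, 66 were called higher and none lower, with a median difference of 1.83, and 2.32, 1.96 and 1.74 on the 3 arrays. The median level was -1.23 in YJM308 and -3.46 in the other strains. YJM308 was the highest strain for 27 of the 86, so other strains reached or passed it for most. YLR256W-A, which lies beside HAP1, read -1.18, -1.55 and -0.88 against a mean of -5.12 and a highest strain of -1.43. HAP1 itself, whose S288C allele carries a Ty insertion, read -2.29, -2.32 and -2.10 against -1.72 (difference -0.52 ± 0.31).

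Of the 22 higher calls left, 3 were the ASP3 copies and few of the others belonged to a list (1 of 20 tested genes of thiamine and vitamin B6, 2 of 18 of the mitochondrial genome, 2 of 17 of trehalose and glycogen). SNZ1, of vitamin B6 synthesis, read 6.43, 3.75 and 3.45 against 0.98 (difference 3.56 ± 0.46, adjusted p = 3.4e-07), and replicates 2 and 3 lay within the range of the other strains' means (-0.06 to 4.38). HEM25, a mitochondrial glycine carrier used in heme synthesis, read 3.12, 3.49 and 2.22 against 0.35 (difference 2.59 ± 0.54, adjusted p = 0.00096). Every value was above every other strain, but the call was lost without replicate 1 (2.5, adjusted p = 0.0166) or 2 (2.32, adjusted p = 0.0178). ARH1, the mitochondrial adrenodoxin reductase homologue, read -0.75, -1.61 and -0.85 against -3.04 (difference 1.97 ± 0.35), with another strain at -1.28. SCEI and AI1 are intron-encoded reading frames of the mitochondrial genome and differed by 4.43 and 3.50. For SCEI 2 other strains stood above YJM308, the highest at 1.5 against a YJM308 mean of 0.82. For AI1 no other strain did, but the other strains' median was -1.01, far above their mean of -3.55. Under the alternatives run, the AI1 difference fell as low as 0.96. Both genes were lowest in YJM308 on replicate 2 (-0.26 and -1.55). GPH1 and GLC3, of glycogen breakdown and branching, differed by 2.93 (2 arrays, 3.37 and 2.52) and 1.62 (3.81, 0.57 and 3.56), and the GLC3 call stood just inside the threshold (adjusted p = 0.0099). For GPH1 1 other strain stood above YJM308, at 4.665. Without replicate 1 or 3 GLC3 was not called (1.04 and 1.17, adjusted p = 0.282 and 0.217), and without replicate 2 it rose to 2.66. SCEI was not called without replicate 1 or 3 (4.22 and 4.10, adjusted p = 0.0288 and 0.0357).

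The 24 lower calls left included few members of lists of amino acid metabolism, 2 of 15 tested genes of aromatic synthesis, 1 of 29 of sulfur and 1 of 18 permeases, and none of 13 of arginine, 9 of lysine, 13 of branched chains and 7 of histidine. Outside chromosome XI 0.828% of all tested genes were called lower. MET17, O-acetylhomoserine sulfhydrylase, read -1.52, -2.35 and -1.68 against -0.25 (difference -1.59 ± 0.37, adjusted p = 0.0041), and lost its call with any 1 of the arrays left out (-1.76, -1.35 and -1.68, adjusted p = 0.0145, 0.0503 and 0.0227). ARO4, which opens the aromatic amino acid pathway, read -0.65, -0.76 and -0.64 against 0.28 (difference -0.96 ± 0.15, adjusted p = 2.1e-05), a call that held with any 1 array left out. ARO1, the pentafunctional enzyme of the same pathway, read -0.35, -1.47 and -0.64 against 0.11 (difference -0.93 ± 0.20, adjusted p = 0.0011), and without replicate 2 it stood at -0.61 and was not called (adjusted p = 0.0733). The median of the aromatic list was -0.23. ALT2, a homologue of alanine transaminase, read -2.14, -1.29 and -2.17 against 0.07 (difference -1.93 ± 0.31, adjusted p = 4.0e-05) and was below every other strain on all arrays. TAT1, an amino acid permease, read -4.02, -2.64 and -3.33 against -2.14 (difference -1.19 ± 0.23). COT1, a vacuolar zinc and cobalt carrier, read -1.74, -1.79 and -2.05 against -0.92 (difference -0.94 ± 0.18). TAT1 and COT1 had other strains lower than YJM308. So did MET17, ARO4 and ARO1, whose lowest other strains stood at -2.06, -0.81 and -0.87 against YJM308 means of -1.85, -0.68 and -0.82. TAT1 lost its call without replicate 1 (-0.85, adjusted p = 0.0541) and COT1 without replicate 3 (-0.85, adjusted p = 0.0170).

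Large but uneven falls were seen for PDR5 and YHB1. PDR5, the main multidrug exporter, read -5.75, -2.96 and -0.96 against -0.85 (difference -2.37 ± 0.52, adjusted p = 0.0019), and its replicate 3 value was close to the mean of the other strains. Another strain had a lower mean than YJM308, at -3.33 against -3.22. Without replicate 1 the difference was -1.11 and was not called (adjusted p = 0.296). YHB1, the flavohemoglobin, had a value on 2 arrays, -3.64 and -4.96, against -0.53 (difference -3.77 ± 0.72, adjusted p = 0.0012), and other strains reached -4.17.

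**Figure D4:**
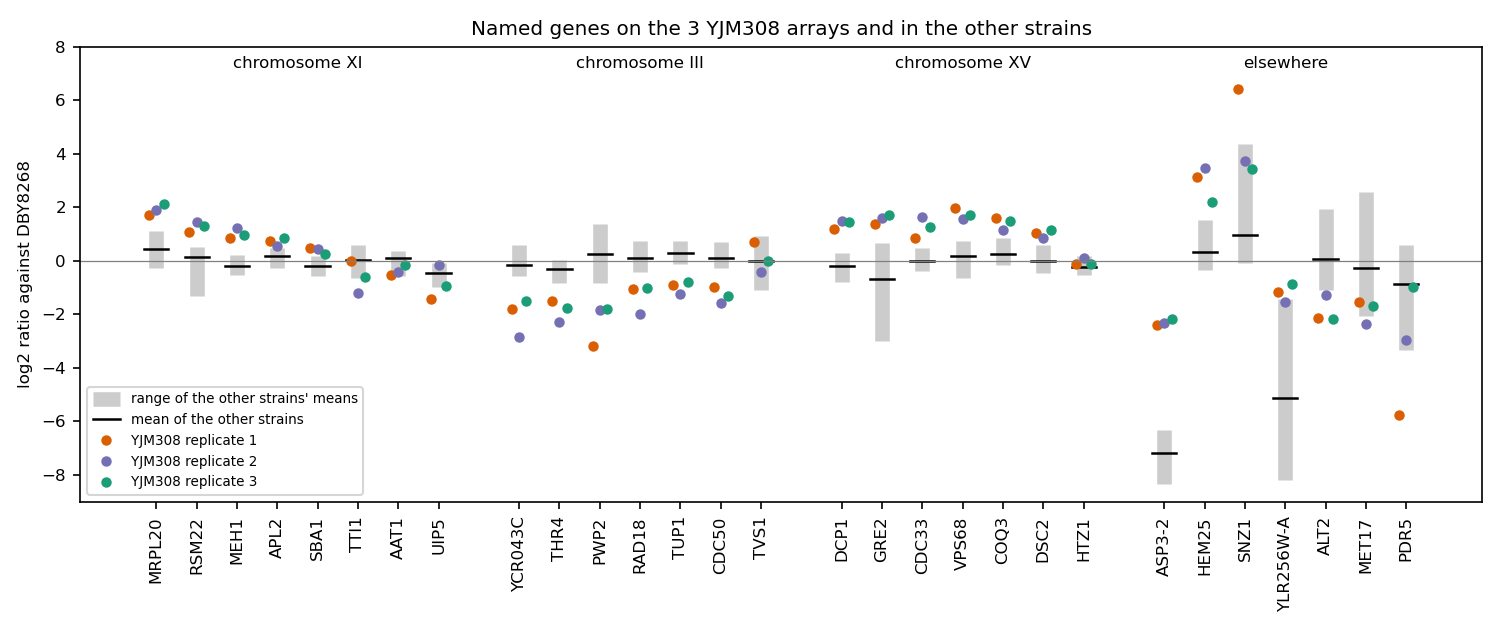
Log2 ratio against DBY8268 of named genes on the 3 YJM308 arrays (coloured points), with the mean of the 16 other strains (black bar) and the range of their means (grey). Genes of chromosome III other than TVS1 lie below the grey range and those of the left arm of XV other than HTZ1 lie above it on all 3 arrays, and PDR5 runs from -5.75 to -0.96.

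Several lists of growth and storage genes ran in opposite directions on different YJM308 arrays. Ribosome biogenesis genes, which build new ribosomes in growing cells, had a median difference of -1.64 on replicate 1, 0.49 on replicate 2 and -0.47 on replicate 3 over 63 tested members, and none was called. Genes of trehalose and glycogen, the storage carbohydrates, ran the other way, at 1.56, -0.45 and 0.81 over 17 members with 2 called. Purine synthesis genes stood at 1.19, -0.95 and 0.79 over 19 members, and histidine synthesis genes at 0.57, -0.87 and -0.12 over 7 members, with no call in either list. The reading frames of the mitochondrial genome stood at 1.21, -0.58 and 1.24. In each of these lists replicate 2, the array that stood apart above, was on the other side of 0 from replicate 1. The part of replicate 2 in these medians was not tested.

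**Figure D5:**
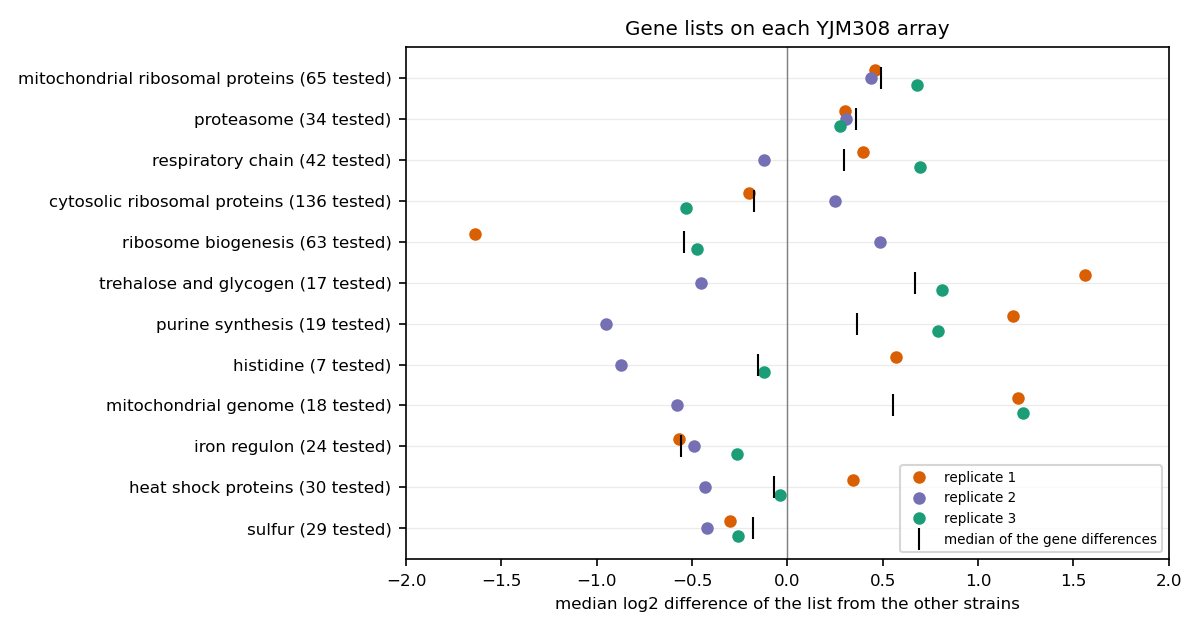
Median difference from the other strains (log2) of 12 gene lists on each YJM308 array (points) and the median of the gene differences (black tick). Ribosome biogenesis runs from -1.64 to 0.49 across the arrays, while the proteasome stays between 0.28 and 0.31.

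Against DBY8268 itself, with no other strain in the contrast, 651 of 5501 genes were called (11.8%), 364 higher and 287 lower. Chromosome XI had 95 higher and 2 lower calls among its 307 genes. This test has no spread of DBY8268 in it, because that strain was only ever the common partner on the array. Mating-type genes were checked against the labels. HO, STE2, STE3, MFA1, MFA2 and MF(ALPHA)1 had too few values to be tested, and neither STE6 (0.29 and -0.42 against 0.29) nor SAG1 (-0.27 and -0.38 against 0.12) was called against the other strains, whose means ran up to 4.76 and 5.56. URA3, which DBY8268 carries only in disabled form, read -0.65, -0.29 and -0.25 in YJM308 against -0.74 elsewhere.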

How the data were processed

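RNA of 17 strains was hybridised against DBY8268 RNA on 54 spotted arrays. The authors filtered spots, centred each array by region and deposited log2 ratios of strain over DBY8268, 1 value per gene and array. In 38 of 38 pairs of arrays of the same strain with exchanged dyes the values correlated positively (r from 0.296 to 0.883), so all deposited log2 ratios run the same way. No column of another series was present. Intensities were not used, and 19.1% of values were missing. Gene symbols came from the RefSeq table of the R64 assembly for 5824 of 6264 systematic names, chromosomes and gene order from the systematic names.

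limma 3.58.1 in R 4.3.3 was fitted with 1 coefficient per strain on all 54 arrays, and the YJM308 coefficient was set against the mean of the others. Genes needed values on 2 YJM308 arrays and in 12 other strains. P-values were adjusted by Benjamini-Hochberg over all genes, chromosomes or blocks tested, at 0.01. Standard errors are moderated and rest on the spread of replicate arrays within strains. Offsets and blocks of 20 tested genes were fitted likewise. A chromosome XI gene was set against the chromosome after the offset excess of each YJM308 array was subtracted. The code was tested on simulated data. The members and lists were chosen with earlier results of these data known. Named genes were those farthest from the offset on chromosome XI by call or moderated t (5 each way), the most precise called genes within 0.1 of it, the 10 largest differences each way elsewhere with 3 values on 1 side, extremes of lists with 3 calls or a median beyond 0.5, mating-type genes, and regulators. The genes shown for the stretches of chromosomes III and XV, and others of the called genes, were named after their values were seen. The block fit, the stretches and the ribosomal protein lists were also added after the data were seen. Alternatives covered centring, scaling, reference, filters, dye, slide, replicate number and single arrays left out. Figures used matplotlib 3.10.9.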

Additional observations from a re-analysis of the deposited data

How the results depend on the processing

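The chromosome XI offset kept its direction and call under every alternative run, from 0.46 with arrays scaled to the same spread to 0.61 on genes with values on all 3 arrays and in all 16 other strains, and from 0.57 to 0.60 with single arrays left out. The chromosome III offset stayed negative but lost its call with the variance of the YJM308 arrays alone (-0.35, adjusted p = 0.172), on genes with a value on all 54 arrays (-0.20) and within the G5 slides (-0.38), and ran from -0.51 to -0.19 with single arrays left out. The count of 220 genes became 136 after scaling, 26 with the variance of the YJM308 arrays alone, 20 on the 777 genes with all values, 94 within G5 and 0 within G6, where YJM308 has 1 array, and ran from 125 to 243 with single arrays left out. For the 60 chromosome XI calls the same settings gave 27, 0, 6, 13 and 0, with 22 to 69 for single arrays left out. For the 651 genes against DBY8268 they gave 366, 2, 107, 269 and 33, with slide series as a block 393 (117 higher and 276 lower, against 364 and 287), and 322 to 707 for single arrays left out. For the 3 genes off the chromosome XI offset they gave 1, 0, 0, 1 and 0, with slide series as a block 5, and 1 to 8. The number of chromosomes called was 1 with the variance of YJM308 alone, on complete genes or within G5, 4 with slide series as a block, 8 against neighbouring chromosomes, and 1 to 3 with single arrays left out. Of 273 blocks, 27 were called, 22 to 28 with single arrays left out, 1 on complete genes, and 1 within G6. With blocks of 10 genes 42 of 548 were called and with blocks of 40 genes 15 of 138. The cause of these changes was not tested, except that complete genes and G6 leave fewer genes or arrays by construction.

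Replicate numbers were not stated to pair cultures across strains. Deviations from the strain means correlated at a median r of 0.06 between arrays of the same number and -0.03 between arrays of different number. With the replicate block 251 genes were called, 213 of them among the 220, 68 on chromosome XI, 538 against DBY8268, 4 chromosomes and 30 blocks, and the offset of chromosome XI was 0.59. Of 8191 settings of named genes, 7882 kept their side of the threshold, 297 lost a call, 11 gained one, and PDR5 turned sign within G6 (0.0613). A change of sign without a call was counted as kept. Most settings left out 1 array of another strain, and many named genes were uncalled from the start. The share kept therefore says little about calls with a YJM308 array left out. The medians of the stretches ran from -1.27 to -0.91 on III, from 0.94 to 1.04 on outer XV and from 0.38 to 0.61 on inner XV with single arrays left out.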

Other observations

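Proteasome genes were alike on the 3 arrays and stood at 0.30, 0.31 and 0.28 over 34 members, with 2 called, PRE6 in the inner stretch of chromosome XV and RPT1 on chromosome XI. PRE6 lost its call without replicate 2 (0.92, adjusted p = 0.0335) or 3 (0.97, adjusted p = 0.0467), and RPT1 without replicate 1 (0.81, adjusted p = 0.0142). The 32 members elsewhere had a median difference of 0.31 and no call. The iron regulon was low on all arrays, at -0.57, -0.49 and -0.26 over 24 members, with none called. Its lowest member was SIT1, a siderophore transporter, at -3.17, -1.74 and -2.65 against -0.10 in the other strains (difference -2.42, adjusted p = 0.020), below every other strain. The cytosolic ribosomal proteins (136 tested, 1 called, RPL25) did not keep 1 side of 0, with medians of -0.20, 0.25 and -0.53. Aryl alcohol and related oxidoreductases (7 tested, none called) had a median of -0.71, and -0.17, -1.15 and -0.66 on the arrays. The sodium pump genes ENA1 and ENA5, near-identical copies, read -0.66, -0.13 and -1.36 and -0.58, -0.09 and -0.70 in YJM308 against -2.26 and -1.97 elsewhere, and neither was called.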
